A study of Mus musculus with 2 samples.

Results

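The Cd28, Ctla4 and Icos domain is a stretch of mouse chromosome 1 that holds 3 neighbouring costimulation receptor genes and 100 kb on either side of them. Its regions were chosen by position alone, as every open region that overlapped the bodies of the 3 genes in GENCODE M21 or those flanks (chr1:60616800-61100320 in mm10, 483.5 kb). Joining the overlapping regions of both replicates gave 85 regions in the domain, of 104044 in all. Of the 85, 75 were found in both replicates, and these shared regions, of 84380 in all, carry the results. The lists of replicates 1 and 2 held 83 and 81 regions in the domain.

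The cells were primary T-helper 1 cells from mice of the strain C57BL/6NJ, for which the labels link a differentiation protocol for CD4 T cells, with the sex not collected and the age unknown. They were profiled by ATAC-seq, per the labels, an assay in which a transposase cuts and tags accessible DNA. There was 1 group with 2 biological replicates and no control condition, so nothing could be tested between conditions. Both replicates carry the same donor identifier and the labels do not say whether separate animals were used, so the spread between them may be technical. The names of the regions also hold the words ASTARR, insert and masked and a time in hours, which the sources used here do not explain. What the libraries were beyond the labelled assay, and what the signal is relative to, could therefore not be stated.

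T cells need a costimulatory signal beside the one from their antigen receptor. CD28 gives it when it binds CD80 or CD86 on another cell, and it recruits PI3-kinase and adaptor proteins that raise interleukin-2 production and survival. CTLA-4 binds the same ligands more tightly, withdraws them from the cell surface and restrains the response. ICOS appears on activated T cells, binds the ICOS ligand and favours cytokine production and help to B cells. The 3 receptors belong to the same branch of the immunoglobulin superfamily, and their genes lie side by side in the order Cd28, Ctla4, Icos, all read in the same direction.

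The sequences below come from the starts of the 3 receptor genes and from selected distal regions. The first 3 are the 200 bp that end just before the protein-coding start of each receptor gene. They lie within the open regions at those starts, whose summits fell just past this stretch in Cd28 and Ctla4 and inside it in Icos. The next 2 reach 100 bp on either side of the replicate 1 summit of the strongest region away from any start, nearest to Ctla4 and to Icos. The last window, chosen after its values were seen, is the same span at the region with the highest −log10 q of the domain in both replicates. All are on the plus strand of GRCm38.p6 (mm10), read from the RefSeq sequence. Capitals mark letters that match one of 14 short motifs described further on.
Cd28 promoter, chr1:60746158-60746357: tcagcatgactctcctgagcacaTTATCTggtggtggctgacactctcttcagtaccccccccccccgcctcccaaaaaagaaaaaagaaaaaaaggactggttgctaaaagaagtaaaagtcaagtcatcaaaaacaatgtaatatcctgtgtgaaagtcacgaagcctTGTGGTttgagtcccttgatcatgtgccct
Ctla4 promoter, chr1:60908825-60909024: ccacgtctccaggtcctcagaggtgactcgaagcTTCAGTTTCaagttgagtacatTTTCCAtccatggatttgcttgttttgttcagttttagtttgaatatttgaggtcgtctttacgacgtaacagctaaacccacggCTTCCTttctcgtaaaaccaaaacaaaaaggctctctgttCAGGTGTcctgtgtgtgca
Icos promoter, chr1:60977727-60977926: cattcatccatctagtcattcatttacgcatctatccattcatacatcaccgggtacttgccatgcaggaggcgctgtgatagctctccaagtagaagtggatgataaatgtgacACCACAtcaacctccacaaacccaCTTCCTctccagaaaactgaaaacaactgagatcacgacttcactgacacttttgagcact
Strongest distal region nearest to Ctla4, chr1:60930536-60930736: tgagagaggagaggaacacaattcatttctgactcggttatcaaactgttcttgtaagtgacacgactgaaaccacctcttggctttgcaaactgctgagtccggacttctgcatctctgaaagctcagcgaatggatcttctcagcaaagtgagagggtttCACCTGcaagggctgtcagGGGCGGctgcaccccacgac
Strongest distal region nearest to Icos, chr1:61039416-61039616: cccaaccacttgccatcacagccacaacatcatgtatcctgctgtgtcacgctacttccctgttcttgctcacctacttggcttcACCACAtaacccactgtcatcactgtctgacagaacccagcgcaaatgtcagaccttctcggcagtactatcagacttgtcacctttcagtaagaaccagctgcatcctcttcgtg
Distal region with the highest −log10 q, chr1:61054567-61054767: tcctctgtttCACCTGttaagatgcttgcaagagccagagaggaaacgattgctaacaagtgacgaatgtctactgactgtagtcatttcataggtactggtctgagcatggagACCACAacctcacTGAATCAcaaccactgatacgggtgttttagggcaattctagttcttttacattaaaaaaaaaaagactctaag

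The capitals in the Cd28 promoter are a RUNX match (TGTGGT) and a match to the GATA factor motif on the other strand. In the Ctla4 promoter they are an IRF match, an NFAT match, an ETS match and, close to the start, the run CAGGTGT, in which a T-box match and an E-box match overlap. The Icos promoter holds an ETS match and a RUNX match, both on the other strand. Among 21853 protein-coding genes, 10.3% had a RUNX match in the 200 bp before their first protein-coding start, 24.2% an ETS match, 14.0% an NFAT match, 13.9% an E-box match, 9.39% a T-box match, 6.78% a GATA match and 5.57% an IRF match. The distal sequence nearest to Ctla4 holds an E-box and a KLF/SP match, and the one nearest to Icos a RUNX match. The window with the highest −log10 q holds an E-box, a RUNX and an AP-1 match.

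Chromatin was open at the start of all 3 receptor genes in both replicates, with signals in the lower or middle part of those at open starts. The signal of a region is the value that the authors' region caller gave it, and −log10 q is the caller's confidence. Both are values of single regions in 1 list and are used here to rank and describe regions within it. Where the signals of both replicates are set side by side, the ratio is a description of the caller's values, not of reads. The reads behind a region are not in the lists, so the depth is unknown and no counting interval is given. At the protein-coding start of Cd28 (position 60746358), the region chr1:60745743-60747186 had a signal of 8.465 in replicate 1 and 7.93 in replicate 2. Its summit lay 26 and 25 bp downstream of that start. At the start of Ctla4 (position 60909025), the region chr1:60908635-60909532 had a signal of 6.16 and 5.93, with its summit 8 bp downstream in both replicates. At the start of Icos (position 60977927), the region chr1:60977468-60978261 had a signal of 6.32 and 5.64, with its summit 92 and 64 bp upstream. The Cd28 start thus had the highest signal of the 3 in both replicates, while Ctla4 and Icos changed places between replicates.

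By −log10 q the same 3 regions stood in another order. The Ctla4 start had a −log10 q of 257.3 in replicate 1 and 210.0 in replicate 2, ranks 2 and 3 among the 75 regions. The Cd28 start had 226.8 and 182.0, ranks 6 and 9. The Icos start had 158.1 and 110.4, ranks 15 and 16. By signal, Ctla4 ranked only 35 and 29, Icos 34 and 33, and Cd28 15 and 16. The region at the Ctla4 start was therefore among the most confident of the domain and near the middle by signal. Across the 75 regions, signal and −log10 q had a Spearman correlation of 0.791 in replicate 1 and 0.808 in replicate 2, a description over regions that share a library.

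**Figure D1:**
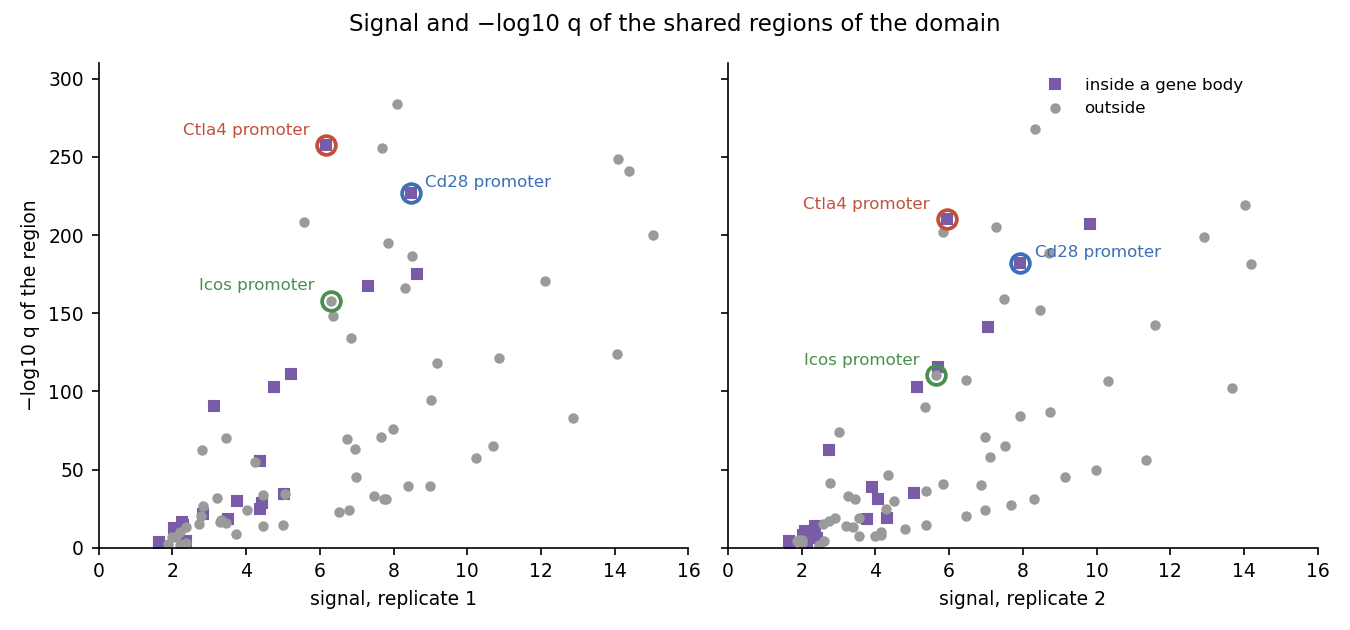
Signal (horizontal) against −log10 q (vertical) of the 75 shared regions in replicate 1 (left) and replicate 2 (right), where squares are regions whose midpoint lies inside 1 of the 3 gene bodies and rings mark the regions at the 3 protein-coding starts. The Ctla4 ring sits high at 257.3 and 210.0 on the vertical axis with a signal of only 6.16 and 5.93.

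Among all genes with an open start the 3 receptors were in the lower or middle part by signal. A start counted as open where a shared region lay within 1 kb of it, which held for 14452 of 21938 protein-coding genes, or 65.9%. With their strongest start region, Ctla4 was at percentile 13.5 in replicate 1 and 13.3 in replicate 2, and Icos at 14.3 and 11.9. Cd28 was at 44.7 and 33.8, but that value came from a region beside a start that is not protein-coding. At its protein-coding start, Cd28 was at 28.7 and 26.1 of 14147 genes. By −log10 q, Ctla4 was at percentile 57.9 and 56.0, Cd28 at 51.9 and 49.5 and Icos at 37.0 and 31.6. The choice of measure thus moved Ctla4 from the lower end to above the middle. For Cd28 the highest −log10 q came from the protein-coding start, not from the region with the strongest signal. With protein-coding starts alone, Cd28 was at percentile 52.2 and 49.8 by −log10 q.

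Cd28 and Ctla4 also have non-coding transcripts with starts further upstream, and each had a shared region near it. The upstream Cd28 start (position 60716800) lay 785 bp past the end of the region chr1:60714107-60716015, which had a signal of 10.7 in replicate 1 and 9.14 in replicate 2. The summit of this region was 2144 and 2180 bp upstream of that start. The upstream Ctla4 start (position 60887000) lay inside the region chr1:60886738-60887591, with a signal of 5.035 and 5.05. ATAC-seq does not show which transcript is made, and no RNA was measured.

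The 75 shared regions were dense along the domain. There were 15.5 per 100 kb in the domain, against 3.10 per 100 kb over all assembled chromosomes, and they covered 13.5% of the domain, against 2.63% of the chromosomes. Of the 85 joined regions 88.2% were shared, against 81.1% in the whole series. The regions themselves were not stronger than others. Their median signal was 5.04 in replicate 1 and 5.05 in replicate 2, against 6.92 and 6.72 over all shared regions. Their median width was 733 bp, against 736 bp over all. With 1 group and overlapping neighbourhoods no test of these differences was made.

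**Figure D2:**
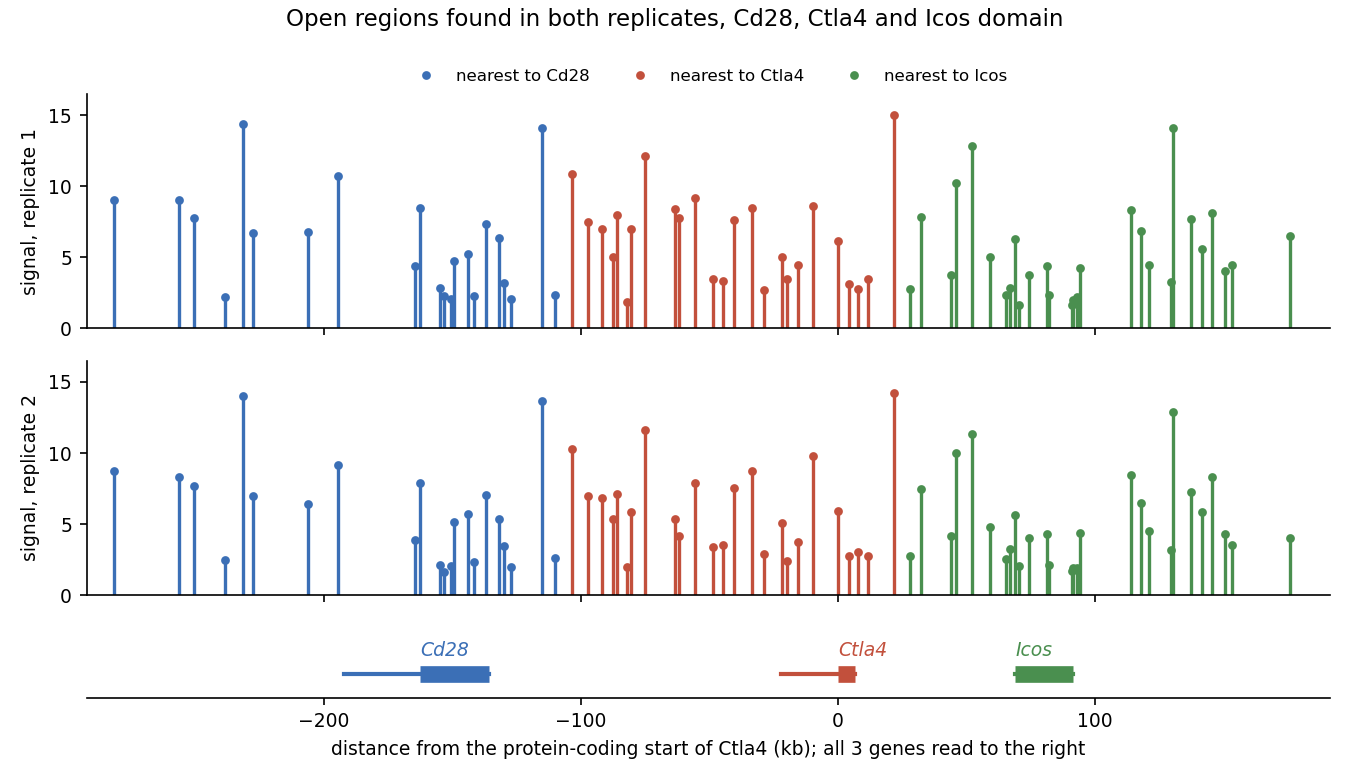
Signal of the 75 shared regions (vertical lines) in replicate 1 (top) and replicate 2 (middle) by distance from the protein-coding start of Ctla4 in kb, coloured by the nearest gene start, with the 3 gene bodies below (thick from the protein-coding start, thin upstream of it). The tallest line in both replicates, 15.0 and 14.2, stands 21.7 kb downstream of the Ctla4 start.

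Most of the regions lay away from annotated starts. Of the 483.5 kb of the window, 375.7 kb lay outside the 3 gene bodies, and the part of this make-up in the shares below was not tested. By location, 46 of 75 were intergenic (61.3%, against 28.5% of all shared regions), 12 were within 1 kb of an annotated start (16%, against 25.5%), 10 were intronic (13.3%, against 37.2%) and 7 overlapped an exon (9.33%, against 8.78%). Intergenic regions of the domain had a median signal of 6.90 in replicate 1 and 5.84 in replicate 2, against 6.65 and 6.43 for intergenic regions of the whole series. The 10 intronic regions of the domain had 2.60 and 2.38, against 6.15 and 5.99 for intronic regions of the whole series. The 12 regions near starts had 6.24 and 5.49, against 9.05 and 8.84 for the whole series.

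Regions inside the bodies of the 3 genes had a lower median signal than those outside. Inside them 20 regions stood at 18.6 per 100 kb, and outside them 55 stood at 14.6 per 100 kb. The median signal inside was 4.055 in replicate 1 and 3.84 in replicate 2, and outside it was 6.73 and 5.64. None of the 20 inside had a signal above 10 in either replicate, whereas 9 of the 55 outside did in replicate 1 and 7 in replicate 2. The strongest inside was chr1:60898347-60899974, within the longer Ctla4 transcript, with 8.62 and 9.82. The weakest segment was the Icos body, where 5 regions had a median signal of 2.36 and 2.14. The region with the lowest signal of all in replicate 1, chr1:60999950-61000203 over an exon of Icos, had 1.64 in replicate 1 and 1.67 in replicate 2. The strongest segment by its median was the flank upstream of Cd28, with only 8 regions (8.0 per 100 kb) but a median of 8.38 and 7.99. The stretches between the genes were about as dense as the bodies, with 18.5 per 100 kb between Cd28 and Ctla4 and 19.3 between Ctla4 and Icos, against 15.9, 20.8 and 22.3 in the bodies of Cd28, Ctla4 and Icos. The lower density outside came from the outer flanks, with 8.0 before Cd28 and 14.0 after Icos.

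Each shared region was assigned to the nearest of the 3 gene starts, which divided the domain into a territory for each gene. Cd28 received 22 regions over 185.1 kb, Ctla4 25 over 130.6 kb and Icos 28 over 167.9 kb. Per 100 kb that was 11.9 for Cd28, 19.2 for Ctla4 and 16.7 for Icos, and the regions covered 9.19%, 19.5% and 13.5% of the territories. Ctla4 had the densest territory and Cd28 the sparsest, also when the protein-coding starts were used (18.1 against 13.3 per 100 kb, with Icos at 16.6). With flanks of 50 kb Icos came first, at 20.4 per 100 kb, against 19.2 for Ctla4 and 14.1 for Cd28, so the order of Ctla4 and Icos depends on how far the flanks reach.

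By signal the Icos territory was the lowest in both replicates. Its regions ranged from 1.64 to 14.1 with a median of 4.41 in replicate 1, and from 1.67 to 12.9 with a median of 4.30 in replicate 2. The Ctla4 regions ranged from 1.89 to 15.0 with a median of 6.96 in replicate 1, and from 2.02 to 14.2 with a median of 5.38 in replicate 2. The Cd28 regions ranged from 2.05 to 14.4 with a median of 5.79 in replicate 1, and from 1.67 to 14.0 with a median of 5.52 in replicate 2. Ctla4 was above Cd28 in replicate 1 and slightly below it in replicate 2, so these 2 genes have no order that both replicates share. The ranges of the 3 territories overlapped almost wholly. Regions of a territory share a library and are not replicates, so no test was made.

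**Figure D3:**
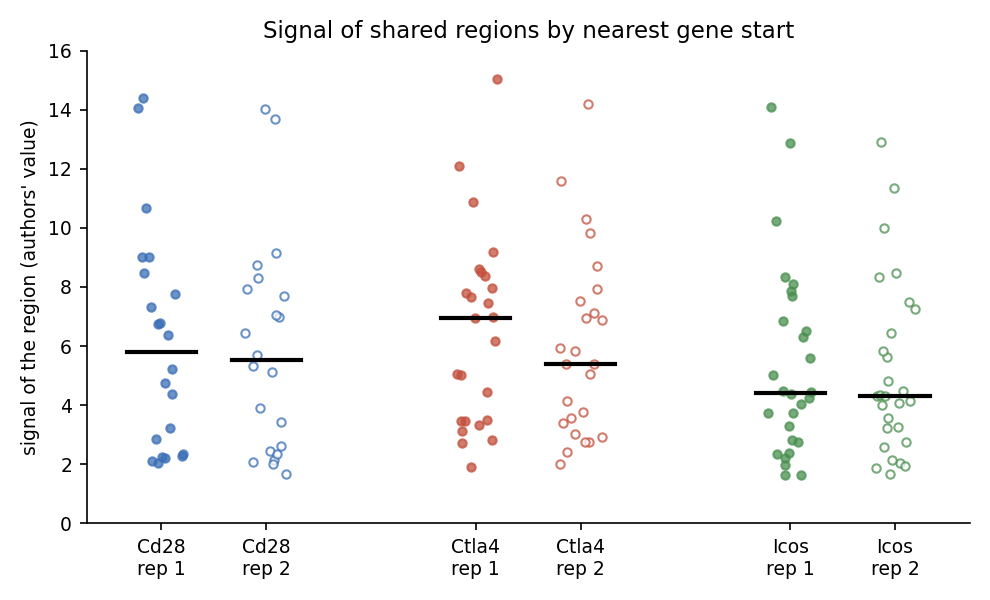
Signal of each shared region by the gene whose start is nearest, with filled points for replicate 1, open points for replicate 2 and a black line at the median. The medians of Icos, 4.41 and 4.30, lie below those of Cd28 and Ctla4 in both replicates.

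The territories also differed in where their regions lay. Of the Cd28 regions 6 of 22 (27.3%) were intergenic and 7 intronic. The Cd28 body is the longest of the 3, at 56.6 kb. The regions of this territory between Cd28 and Ctla4 all overlapped Gm11579 or 2310016D23Rik, so none of them counted as intergenic. Among the intronic regions, chr1:60798580-60799274 lay in 2310016D23Rik and not in Cd28. Of the Ctla4 regions 18 of 25 (72.0%) were intergenic, and of the Icos regions 22 of 28 (78.6%). With the protein-coding starts the intergenic shares were 12 of 28 (42.9%) for Cd28, 66.7% for Ctla4 and 76.9% for Icos. The Ctla4 and Icos bodies are 28.8 and 22.4 kb long.

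The strongest region of the domain in both replicates was chr1:60930311-60931204, intergenic and 21.7 kb downstream of the protein-coding start of Ctla4, with a signal of 15.0 in replicate 1 and 14.2 in replicate 2. It lay only 1.7 kb from the line between the Ctla4 and Icos territories, so its assignment to Ctla4 is a matter of position. The next strongest of the Ctla4 territory were chr1:60833095-60834417, 75.3 kb upstream of that start, with 12.1 and 11.6, and chr1:60804725-60806022, 103.7 kb upstream, with 10.9 and 10.3. The lowest was chr1:60826975-60827300, with 1.89 and 2.02. The region at 103.7 kb and the lowest region are assigned to Ctla4 by the gene's upstream start, and to Cd28 when the protein-coding starts are used. The 3 strongest kept their order in both replicates.

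In the Cd28 territory the second strongest region was chr1:60793671-60794173, 47.6 kb downstream of the protein-coding start of Cd28, with 14.1 in replicate 1 and 13.7 in replicate 2. It overlapped an exon of the long non-coding RNA gene 2310016D23Rik and the pseudogene Gm11609. The third was the region beside the upstream Cd28 start described above. The lowest was chr1:60755487-60756122 in an intron of Cd28, with 2.25 and 1.67.

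In the Icos territory the strongest region was chr1:61039099-61040149, 61.7 kb downstream of the Icos start, with 14.1 in replicate 1 and 12.9 in replicate 2. It was followed by chr1:60960437-60961552, 16.9 kb upstream, with 12.9 and 11.3, and chr1:60954680-60955296, 22.9 kb upstream, with 10.25 and 9.995. All 3 were intergenic.

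Downstream of Icos, 4 regions between 61.7 and 76.9 kb from its start stood out by −log10 q, a group named after its values were seen. The region chr1:61054327-61055383, at 76.9 kb, had the highest −log10 q of the domain in both replicates, 283.5 and 267.9, with a signal of 8.10 and 8.32. The region chr1:61045899-61046893, at 68.5 kb, had 255.6 and 205.2, ranks 3 and 5. The region chr1:61039099-61040149, the strongest of the territory, had 248.7 and 198.5, ranks 4 and 7. The region chr1:61050132-61050864, at 72.6 kb, had 208.4 and 201.8, ranks 7 and 6. All 4 were thus among the 7 highest in each replicate, and the summit window of each held a RUNX match, which 34.7% of the windows of the domain and 22.8% of all shared regions also hold. No gene is annotated in GENCODE M21 between the end of Icos and the pseudogene Rpl17-ps1, which starts at position 61075674, past these regions.

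The other genes of the window are not annotated as protein-coding. They comprise 2 long intergenic RNA genes (Gm11579 and 2310016D23Rik), 3 loci awaiting experimental support (Gm37198, Gm38137 and Gm37039) and 7 processed pseudogenes (Gm11577, Eif4a-ps4, Gm11609, Gm11581, Rpl18-ps1, Gm11582 and Rpl17-ps1). With the 3 receptors that makes 15 genes. Of the 12 regions near annotated starts, 5 belonged to the receptors, 3 at their protein-coding starts and 2 near the upstream starts of Cd28 and Ctla4. The other 7 lay within 1 kb only of starts of genes not annotated as protein-coding. The start of 2310016D23Rik was covered by chr1:60778826-60779542, with a signal of 3.21 in replicate 1 and 3.43 in replicate 2. The start of Gm11579, which is read on the minus strand, was covered by chr1:60781731-60782018, with 2.10 and 2.00. The start of Gm38137 was covered by chr1:60880112-60881283, with 2.71 and 2.91. These 3 regions had a lower signal than those at the 3 protein-coding receptor starts in both replicates. The other 4 were chr1:60898347-60899974 near Rpl18-ps1 (8.62 and 9.82), chr1:60702620-60703124 near Eif4a-ps4 (6.785 and 6.45), chr1:60776589-60777925 near 2310016D23Rik (6.36 and 5.34) and chr1:60989626-60990702 near Gm37039 (4.37 and 4.31). Of these the first 2 exceeded the regions at the Ctla4 and Icos starts in both replicates.

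The 2 lists resembled each other closely in the domain. The Spearman correlation of the signal between replicates over the 75 regions was 0.968, and 0.963 over all shared regions. The summits were a median of 7 bp apart in the domain, against 13 bp in the whole series, and 8 of 75 were more than 100 bp apart, against 10.5% of the series. Replicate 1 had the higher signal at 47 of 75 regions (62.7%), against 58.1% in the whole series. The ratio of replicate 1 to replicate 2 ranged from 0.812 to 1.88.

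A difference of more than 1.5-fold between replicates occurred at 3 of 75 regions (4.0%), against 2.18% in the whole series, and in all 3 replicate 1 was higher. The regions chr1:60845764-60846260 (8.38 in replicate 1, 5.38 in replicate 2) and chr1:60846938-60847304 (7.78 and 4.15) are neighbours, 61.9 to 63.0 kb upstream of the Ctla4 protein-coding start. The third, chr1:61084623-61085098 (6.51 and 3.99), is the last shared region of the window, 106.9 kb downstream of the Icos start. With 2 replicates it cannot be told which value is nearer to a typical one.

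Found in 1 list only were 10 regions, 6 in replicate 1 and 4 in replicate 2. Their signals ranged from 1.48 to 4.79, so all were below the domain's median of shared regions. In the Cd28 territory there were 4, in that of Ctla4 4 and in that of Icos 2.

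The ends of the window cut through no region. The first shared region inside, chr1:60627375-60628314 (9.01 in replicate 1, 8.74 in replicate 2), began 10.6 kb from the upstream edge. Just outside that edge, 2.9 kb away, lay chr1:60613063-60613880 with 14.9 and 14.7, close to the strongest inside. Past the downstream edge the next region was 35.2 kb away, with 7.11 and 6.845. The largest gaps without a shared region inside the window were 28.2 kb, in the upstream part of the Cd28 gene before its protein-coding start, 24.0 kb, 22.1 kb and 20.9 kb, while the median gap was 3.85 kb.

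Around each receptor gene the number of shared regions was high among protein-coding genes. Within the gene itself plus flanks of 100 kb there were 36 for Cd28, 44 for Ctla4 and 38 for Icos, and a median of 15 over 21938 protein-coding genes. These counts stood at percentile 97.9 for Cd28, 99.5 for Ctla4 and 98.6 for Icos, and 120 protein-coding genes had as many as Ctla4 or more. The 3 windows overlap and share regions, so they are not separate observations. Close to the genes they were less exceptional, with 14, 12 and 13 regions within 20 kb for Cd28, Ctla4 and Icos, at percentiles 94.8, 92.3 and 93.7.

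**Figure D4:**
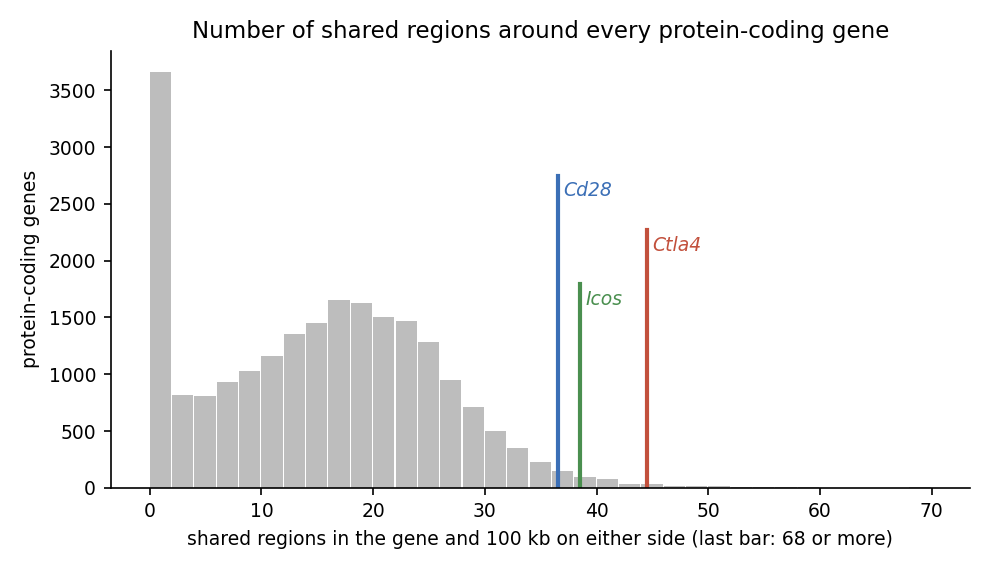
Number of protein-coding genes (vertical) by how many shared regions it has with flanks of 100 kb (horizontal), with coloured lines at Cd28 (36), Icos (38) and Ctla4 (44). All 3 lines stand in the right tail, past the median of 15.

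The arrangement of regions around the 5′ end of each gene was compared with that of every protein-coding gene over 1 Mb away. The measure was the sum of absolute differences over 10 bins of 20 kb in the direction of transcription. For Cd28 and Ctla4 this 5′ end is the upstream non-coding start, not the protein-coding one. For Cd28, with 24 regions in the bins, 6 genes were at a distance of 5 regions or less, against a median of 19 over genes, and Ano9, Fignl1 and Hrc are the first 3 of them by distance and then by name. For Ctla4, with 38, 5 genes were at 6 or less (median 26), the first 3 being Dohh, Gm48551 and Gm48552, which lie together on chromosome 10 and share regions. For Icos, with 37, 7 genes were at 7 or less (median 25), the first 3 being Fance and Gm11172 at 6 and Cd247 at 7. Ties were broken by name alone, so the genes named do not stand apart from the others at the same distance.

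The letters under the summits were searched for 14 motifs, exact and on both strands, within 100 bp of the replicate 1 summit. A match is a description and not a bound site. RUNX (TGTGGT) was the most common in the domain, in 26 of 75 windows (34.7%), against 22.8% of all shared regions. STAT (TTCNNNGAA) was in 14 (18.7%), against 7.99%, and NFAT (TGGAAA) in 16 (21.3%), against 15.2%. KLF/SP (GGGCGG) was in 2 (2.67%), against 14.0%, and CTCF (CNAGNNGGC) in 6 (8.0%), against 15.4%. The median GC content of the windows was 45.8% in the domain, against 49.3% over all, and its part in these shares was not tested. With the 63 regions away from starts alone, RUNX stood at 30.2% against 25.7%, STAT at 17.5% against 8.91% and KLF/SP at 3.17% against 5.23%.

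The shares of the other motifs differed from those over all regions by less than 5 percentage points. ETS (AGGAAG) was in 23 windows of the domain (30.7%, against 31.8%), AP-1 (TGANTCA) in 17 (22.7%, against 26.0%), TCF/LEF (CTTTGA) in 12 (16%, against 14.5%), the E-box CACCTG in 10 (13.3%, against 15.1%) and the T-box AGGTGT in 9 (12.0%, against 12.3%). T-box and E-box matches overlap in the run CAGGTGT. The letters AGATAA of GATA factors were in 4 (5.33%, against 6.91%), IRF (GAAANNGAA) in 3 (4.0%, against 8.64%) and NF-kB (GGGNNTTCC) in 2 (2.67%, against 4.45%). Forkhead (TGTTTAC) was in none, against 2.29%.

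With regions assigned to the nearest gene start, the territories held different motifs in small numbers. An AP-1 match was in 1 of 22 Cd28 windows, 7 of 25 Ctla4 windows and 9 of 28 Icos windows. An NFAT match was in 8, 3 and 5 of them, and a STAT match in 3, 7 and 4. RUNX was in 8, 8 and 10. All 3 IRF windows were in the Icos territory and both KLF/SP windows in that of Ctla4. The AP-1, NFAT, STAT and RUNX counts depend on the starts used. With protein-coding starts, chr1:60817086-60817571 (RUNX), chr1:60821287-60821903 (RUNX and STAT), chr1:60822838-60823420 (AP-1 and RUNX) and chr1:60826975-60827300 (AP-1 and STAT) pass from Ctla4 to Cd28. The regions chr1:60936370-60937347 (NFAT) and chr1:60938632-60941839 (RUNX) then pass from Icos to Ctla4. After these moves Ctla4 no longer has more STAT windows than Cd28, and Cd28 has the most RUNX windows. Cd28 still has the fewest AP-1 and the most NFAT windows.

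**Figure D5:**
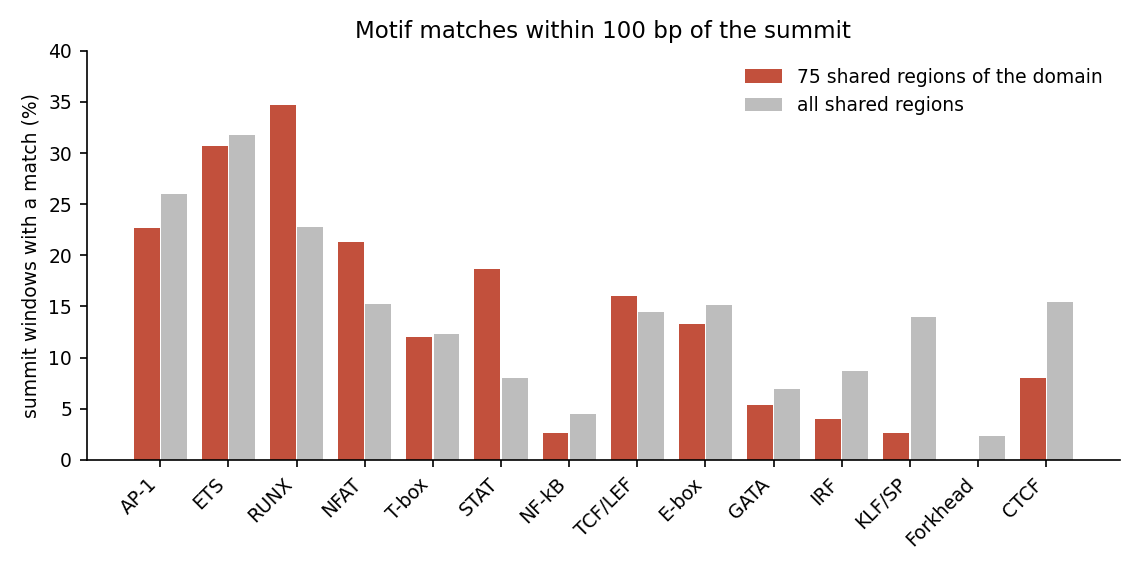
Share of summit windows (within 100 bp of the summit) that hold a match to each of 14 motifs, in the 75 shared regions of the domain (left bar of each pair) and in all 84380 shared regions (right bar). RUNX is at 34.7% against 22.8%, STAT at 18.7% against 7.99% and KLF/SP at 2.67% against 14.0%.

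A list of 48 genes of costimulation held ligands, related receptors, kinases and adaptors, phosphatases, genes of CTLA-4 trafficking and target genes. It was chosen with earlier results of these data known, so its share of open starts is a description only. All 48 genes had an open start, against 65.9% of protein-coding genes. Their median signal was 9.09 in replicate 1 and 9.11 in replicate 2, against 11.3 and 11.1 over all genes with an open start, so Ctla4 and Icos, at 5.64 to 6.32, were below it. Cd28 was above it with the region beside its non-coding start, at 10.7 and 9.14, and below it at its protein-coding start, at 8.465 and 7.93. Among the ligands, which are mostly made by antigen-presenting cells, Icosl (12.5 in replicate 1, 12.45 in replicate 2) was the highest and Cd86 (6.41 and 6.70) the lowest. Of the related inhibitory receptors, Btla had 5.06 and 5.95 and Pdcd1, which encodes PD-1, had 3.59 and 3.53.

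Among the kinases and adaptors that carry the signal, Pdpk1, which encodes the kinase PDK1, had the highest value at 16.2 in replicate 1 and 15.97 in replicate 2. Prkcq, which encodes protein kinase C theta, had the lowest at 3.09 and 3.76. Among the phosphatases, Ppp2r1a, a scaffold subunit of protein phosphatase 2A, had 13.4 in both replicates and Ptpn6, which encodes SHP-1, had 6.37 and 5.97. Among genes that move CTLA-4 to or from the cell surface, Ap1m1, a subunit of the AP-1 adaptor complex of vesicles, had 15.8 and 15.2, and Trat1, which encodes the adaptor TRIM, had 4.32 and 3.56. Among the target genes, Il2 had 11.1 and 11.5, and Cd40lg, which encodes the ligand of CD40, had 3.40 and 3.09.

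The label of the cells was set beside marker genes. Over all protein-coding genes, 65.9% had an open start. An open start was found at 8 of 8 T cell markers annotated as protein-coding and 6 of 6 Th1 markers, against 1 of 5 myeloid markers (Cd14), 1 of 2 CD8 T cell markers (Cd8b1) and 1 of 3 natural killer cell markers (Klrb1c). In replicate 1 the start signals ranged from 2.29 to 9.81 for the T cell markers and from 3.57 to 10.98 for the Th1 markers. The median over all genes with an open start was 11.3. Cd4 was the lowest of the T cell markers, at percentile 0.221. Of the B cell markers, Cd79b and Pax5 had an open start. Klrb1c had a signal of 18.3 in replicate 1 and 16.05 in replicate 2, and Pax5 11.2 and 10.7. Cd79a, Ms4a1, Csf1r, Adgre1, Ncr1, Klra8 and Cd8a had no region within 1 kb of a start in either list, while the myeloid markers Lyz2 and Itgam had one in replicate 1 alone. The part of other cells in the values of the domain was not tested.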

How the data were processed

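The deposited lists hold open regions of ATAC-seq, 1 list per replicate, each made from its own replicate's alignments to mm10, per the file headers and labels. No source used here gives the aligner or the region caller. The authors' values are a signal per region, −log10 of a p-value and of a q-value (smallest −log10 q 1.01 and 1.0) and a deposited display score, which was not used.

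Regions of both lists that overlapped by at least 1 bp were joined. A joined region took the strongest signal and the highest −log10 q of each list, and its midpoint set the nearest gene start, the 5′ end of the GENCODE M21 gene. Starts, exons and introns came from GENCODE M21. Sequences came from RefSeq GRCm38.p6, with promoters ending just before the protein-coding start. The Cd28 and Ctla4 stretches lie inside the annotated gene bodies, downstream of the non-coding starts of both genes. The median signal of a territory in both replicates is the mean of its 2 values.

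Named were the 3 receptors and every gene of the window, the highest and lowest member of each role of the costimulation list, the 3 genes most alike in arrangement, and per territory the 3 strongest regions and the lowest. A marker gene and the strongest region of the Cd28 territory are not reported here. The members and lists were chosen with earlier results of these data known. There were 16 alternative settings planned and 2 added after seeing the data. Python 3.11.15, pandas 2.3.3, numpy 2.4.6, pysam 0.24.0, samtools 1.23.1 and matplotlib 3.10.9 were used, and joining, assignment and motif search were tested on simulated data.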

Additional observations from a re-analysis of the deposited data

How the results depend on the processing

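The counts of shared regions in the domain and per gene stayed within 1.5 times of the reported ones under each alternative overlap, q threshold, flank, assignment and left-out list. The order by number changed. Assignment by the nearest gene body gave Cd28 29 regions, Ctla4 20 and Icos 26, the nearest protein-coding start, an alternative added after seeing the data, 28, 21 and 26, and a −log10 q of at least 5 gave 18, 24 and 24. As a mean of both replicates, the median signal was 5.66 in the Cd28 territory and 4.35 in that of Icos. With 1 list left out these were 4.79 to 5.34 for Cd28 and 4.13 to 4.22 for Icos, and with a −log10 q of at least 5 they were 6.74 and 4.58. With protein-coding starts the Cd28 median was 6.31. The Icos median stayed the lowest of the 3 in both replicates under each of these settings, a stricter overlap and flanks of 50 or 200 kb. The start signal of Cd28 was 9.92, and 8.20 within 500 bp or at protein-coding starts alone. By region number, Cd28 moved from percentile 97.9 to 94.8 within 20 kb and 97.4 within 50 kb, Ctla4 from 99.5 to 92.3 and 96.4, and Icos from 98.6 to 93.7 and 97.8. With −log10 q in place of signal, the start percentile was 50.7 instead of 39.3 for Cd28, 57.0 instead of 13.4 for Ctla4 and 34.3 instead of 13.1 for Icos. For Cd28 the region changed as well, from the one beside the upstream start to the one at the protein-coding start. The cause was not tested. Within 50 bp of the summit the number of windows with a match moved by over 1.5 times for 9 of 14 motifs, and at the replicate 2 summit for 0 of 14. The narrower window holds fewer letters, and shares over all regions fell as well, for RUNX from 22.8% to 14.1%. The count of 9 therefore does not show how stable the differences from all regions are. Within 50 bp STAT stood at 8.0% in the domain, against 3.97% over all, and RUNX at 20%, against 14.1%. KLF/SP stood at 0.0%, against 8.65%, and CTCF at 4.0%, against 9.56%. NFAT stood at 8.0%, against 7.23%, so that its difference nearly vanished. No paired analysis was possible because there is 1 group. Without reads per region, counting error is unknown.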
